A study of Mus musculus with 9 samples.

Results

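The genes described are 54 that serve DNA replication, mitosis or the control of entry into the cell cycle, followed across the deposited arrays of sorted retinal endothelial cells. The list was given by gene name, with earlier results of these data known. All probe sets that the platform annotation gives exactly 1 gene symbol, and whose symbol was on the list, were taken, which gave 96 of 36701 probe sets and 53 of the 54 genes. Ccnb1, which encodes cyclin B1, was the 1 gene without such a probe set. By role there were 20 replication genes with 35 probe sets, 20 mitotic genes with 33, 12 genes of G1 control with 26, and Stmn1 with 2. Design A held 70 of these probe sets, B held 6 and C held 20. The names of 27 mark them as shared with other transcripts or reduced in their probes, and those readings are less certain.

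A dividing cell first licenses its replication origins by loading the Mcm helicase, then copies its DNA in S phase with polymerases, clamps and a supply of deoxynucleotides. It then makes the cyclins, kinases, motor proteins and checkpoint proteins that condense, align and part the chromosomes in G2 and M phase. Transcripts of the S phase set are made largely under E2F factors from late G1 on, and those of the mitotic set accumulate later, in G2. In the retina of a newborn mouse the vascular plexus is still spreading and its endothelial cells divide.

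All arrays carried 1 condition: GFP-positive cells sorted from retinas of homozygous Tie2-GFP mice at postnatal day 8, after intraperitoneal APB5, a neutralizing antibody against PDGFRb, from postnatal day 0 to day 7. PDGFRb is the receptor by which pericytes are recruited to vessels, and no array of untreated animals was analysed here, so no effect of the antibody can be read. Each of the complementary designs A, B and C of the Affymetrix MG-U74v2 series was hybridised 3 times, giving 9 arrays with linear intensities. The retinas were pooled and papain-digested, propidium iodide marked dead cells, and amplified RNA was labelled with biotin. Whether the replicates were separate pools is not in the labels, so the spread between arrays may be technical. The Tie2 promoter that drives GFP is also active in some blood cells. With 1 condition no test between groups exists, and every value below is a description.

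Signal is given as intensity, or as position, which is the percentile of a probe set among all probe sets of its array. A position depends on the probes as well as on the transcript, so the order of genes by position is not an order of transcript levels. Array medians of intensity ran from 32.3 to 44.5 over the 9 arrays. The 8 endothelial marker genes had a median position of 97.5 ± 0.21 (SD over 3 replicates). Among them Kdr, a VEGF receptor, was at 99.3 and Pecam1, an adhesion molecule, at 52.4. Median positions of the other cell lists were 25.7 for 6 genes of retinal progenitors and glia, 39.5 for 5 photoreceptor genes, 47.5 for 6 mural genes, 31.5 for 6 microglia and macrophage genes, 21.3 for 5 astrocyte genes and 51.2 for 5 erythroid genes. None of these markers was listed at 0, and the median over all 15964 genes was 52.3.

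Both classes of cell cycle genes lay mostly in the upper range of the arrays. The median position was 72.4 ± 0.87 over the 20 replication genes and 78.7 ± 2.8 over the 20 mitotic genes (SD over 3 replicates), beside 52.3 for all genes. It was 74.7 ± 1.0 over the 12 genes of G1 control. By replicate, the replication median was 73.4, 71.7 and 72.1, and the mitotic median was 81.8, 76.8 and 77.3. The replication median minus the mitotic one was -6.26, with an SD of 1.9 over the replicates. That gap was widest on replicate 1, where the mitotic median was highest, and it narrowed to -2.29, with an SD of 3.8, when each gene was averaged over its probe sets on all designs. That smaller gap is within the spread between replicates.

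**Figure D1:**
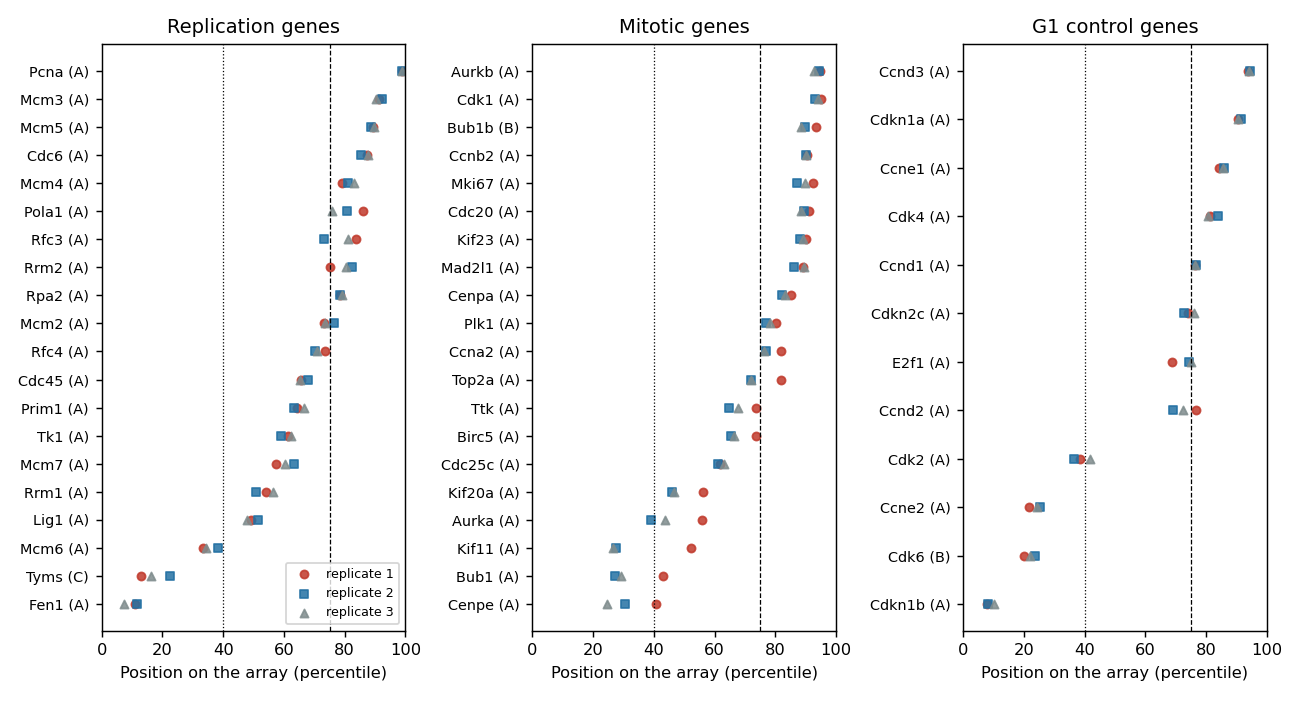
Position of each measured gene (percentile of its probe sets among all probe sets of the array, horizontal axis) on the replicate 1, 2 and 3 arrays (circles, squares and triangles), in panels for replication, mitotic and G1 control genes, with the design used in brackets and dotted and dashed lines at percentiles 40 and 75. Most genes lie to the right of the dotted line, and among the mitotic genes the circles of Kif11, Top2a, Bub1 and Aurka stand to the right of their squares and triangles.

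A probe set counted as above the floor when it exceeded the 40th percentile on all 3 arrays of its design, which 58.7% of the 29131 probe sets with 1 symbol (the named probe sets) did. Of the replication probe sets 26 of 35 (74.3%) were above the floor, of the mitotic ones 25 of 33 (75.8%), and of those of G1 control 15 of 26 (57.7%). Above the 75th percentile on all 3 arrays lay 17 replication probe sets (48.6%), 15 mitotic ones (45.5%) and 8 of G1 control (30.8%), beside a background of 24.2%. Probe sets of the listed replication and mitotic genes thus passed both thresholds at larger shares than named probe sets in general. G1 control was near the background at the floor. Further replication and mitotic genes, described below, came closer to the background. Above the 75th percentile lay 20 of 65 further replication probe sets (30.8%) and 27 of 90 further mitotic ones (30%). Above the floor lay 44 of 65 (67.7%) and 60 of 90 (66.7%). Genes typical of liver, pancreas, testis and other tissues that are not retina were above the floor in 21 of 56 probe sets (37.5%) and above the 75th percentile in 1 (1.79%). The 90th percentile of these unrelated-tissue probe sets on each design gave a stricter floor. Above it lay 22 of 35 replication (62.9%) and 16 of 33 mitotic probe sets (48.5%), beside 43.1% of all named ones, so the mitotic share was then near the background. By gene, 18 of 20 replication, 19 of 20 mitotic and 9 of 12 G1 control genes had at least 1 probe set above the floor, beside 72.5% of all 15964 genes. A gene with several probe sets passes this rule more easily.

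**Figure D2:**
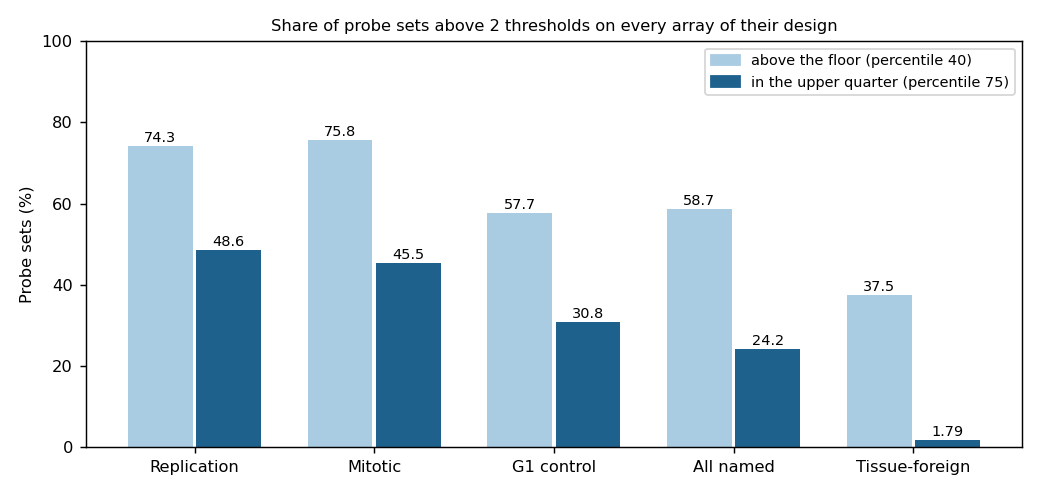
Share of probe sets (percent, vertical axis) above the 40th percentile (light bars) and above the 75th percentile (dark bars) on every array of their design, for replication, mitotic and G1 control genes, all probe sets with 1 symbol, and genes of unrelated tissues. The dark bars of replication (48.6%) and mitotic genes (45.5%) stand above that of all named probe sets (24.2%), and that of the unrelated tissues is at 1.79%.

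Among the replication genes the sliding clamp Pcna and the helicase subunits Mcm3 and Mcm5 were high. Pcna, the clamp that holds DNA polymerase on its template, read 1239, 1263 and 1332 on the replicate 1, 2 and 3 arrays of design A, a position of 98.8 ± 0.15. Its mean was 1278 ± 48.2 (SD, n = 3 arrays). Mcm3, a subunit of the Mcm helicase, read 295, 345 and 280 on 1 probe set of design A and 290.1, 327 and 232 on the other, and was highest on replicate 2 on both. Mcm5, of the same hexamer, read 309, 324 and 240 on its plain probe set of design A. Its reduced probe sets read 197, 183 and 223 on A and 120.3, 116 and 133 on C, so its highest array was not the same on all of them. Cdc6, which loads the helicase, read 205, 181 and 198. Mcm2 read 92.1, 111 and 91.0, at a position of 74.4 ± 1.8, and was highest on replicate 2.

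Other licensing, fork and nucleotide genes were spread over a wide range of positions. Mcm4 was at position 81.1, Mcm7 at 60.4 and Cdc45, a helicase cofactor, at 66.3. Pola1, the catalytic subunit of polymerase alpha, read 184, 139 and 99.5, and Rfc3, of the clamp loader, read 159.9, 93.2 and 130.4. Both were highest on replicate 1, but their lowest arrays differed. Rfc4 was at position 71.6, Rpa2, of the single-strand binding complex, at 78.6 and Prim1, the primase, at 64.7. Rrm2, the small subunit of ribonucleotide reductase, read 102, 150.4 and 125, highest on replicate 2 and lowest on replicate 1. The lowest replication genes by position were Fen1, the flap endonuclease, with 13.4, 14.4 and 11.6, Tyms, thymidylate synthase, with 10.7, 15.5 and 12.5 on design C, and Mcm6 with 28.4, 32.8 and 30.5. Such low readings are no proof that a transcript was missing. On design C a probe set of Mcm6 marked as shared or reduced was above the floor at 75.4. The plain probe set of Mcm6 on that design read 20.5, 19.4 and 19.2 and was below the floor.

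The mitotic genes also lay high, and most read highest on replicate 1. Aurkb, a kinase of the chromosomal passenger complex, read 469, 432 and 326 on design A and 298, 182 and 147 on design C. Cdk1, the kinase that drives entry into mitosis, read 472, 362 and 378, at position 93.9 ± 0.95. Bub1b, a spindle checkpoint kinase, read 262, 187 and 177 on design B, and Ccnb2, a B-type cyclin, read 271, 265 and 242. All of these were highest on replicate 1 after each array was centred on its median. Replicate 1 was 1.14-fold above the lowest array for Ccnb2 and 2.01-fold above it for the design C probe set of Aurkb. That probe set of Aurkb is marked as shared or reduced.

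Mki67, the antigen used to stain cycling cells, read 411, 254 and 279 on its plain probe set of design A. It read 282, 173 and 205 on the other, which is marked as shared or reduced, and its position was 89.8 ± 2.6. Top2a, the topoisomerase that untangles sister chromatids, read 144, 88.8 and 85.2, at 75.2 ± 5.8. Replicate 1 was 1.64-fold and 1.66-fold above the lowest array on the probe sets of Mki67 and 1.72-fold above it on that of Top2a. For both genes the other arrays lay closer to each other than to replicate 1. Positions were 89.6 for Cdc20, which activates the anaphase-promoting complex, 89.1 for Kif23, a kinesin of cytokinesis, and 88.1 for the checkpoint gene Mad2l1. They were 83.5 for the centromeric histone Cenpa, 78.4 for the polo kinase Plk1, 78.3 for cyclin A2 (Ccna2), 68.7 for the checkpoint kinase Ttk, 68.5 for survivin (Birc5) and 62.0 for the phosphatase Cdc25c. All probe sets of Plk1 are marked as shared or reduced.

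The 4 mitotic genes lowest by position, Cenpe, Bub1, Kif11 and Aurka, also had the widest position SDs of the class, from 8.3 to 14.5. A position SD is not a spread of intensity. Aurka had a position SD of 8.6 at 1.54-fold between its highest and lowest array. Mki67 had a position SD of 2.6 at 1.64-fold and 1.66-fold on its probe sets. Kif11, the kinesin that keeps spindle poles apart, read 46.1, 24.7 and 25.1 on design A, a position of 52.2 on replicate 1 against 27.5 and 26.6 on replicates 2 and 3. Cenpe, a kinetochore motor, read 91.9, 49.1 and 36.8 on its plain probe set of design A, and its design B probe set read 180.4, 117 and 129. Bub1, a checkpoint kinase, read 73.7, 49.3 and 49.8 on 1 probe set and 49.7, 19.3 and 25.2 on another. Replicate 1 was highest on each of these probe sets. Aurka, the spindle pole kinase, was highest there too, with 50.7, 33.4 and 37.8, and Kif20a, a kinesin of the midzone, was at position 49.5. Since the floor had to be passed on all arrays, the design A probe sets of Kif11 and Aurka, 1 of Kif20a and the second of Bub1 did not pass it. Counts of mitotic probe sets are therefore also given without the floor.

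The G1 control genes included both high and low readings. Ccnd3, a D-type cyclin, read 393, 437 and 384 on design A. Cdkn1a, which encodes the CDK inhibitor p21, read 259, 283 and 211 on 1 probe set and 286, 354 and 329 on the other, and both were highest on replicate 2. Ccne1, cyclin E1, read 164, 186 and 169 on design A. Cdk4, the partner kinase of D-type cyclins, read 493, 548 and 408 on 1 probe set and 73.6, 90.4 and 71.5 on the other, again highest on replicate 2. Ccnd1, cyclin D1, read 482, 415 and 419 on 1 probe set of design A and 53.7, 57.0 and 54.8 on the other, so replicate 1 stood out on the stronger one alone.

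Other genes of G1 control lay lower. Cdkn1b, which encodes the CDK inhibitor p27, read 15.9, 17.5 and 20.3 on its plain probe set and 4.69, 1.64 and 3.11 on its reduced one, and lay at a position of 8.8 ± 1.2, the lowest of the class. Cdk6, the other partner of D-type cyclins, was on design B alone, where its 3 probe sets read between 11.8 and 29.8 on all arrays and were all below the floor. Ccne2, cyclin E2, read 20.5, 23.3 and 23.6 on design A. E2f1, the transcription factor of S phase entry, was at position 72.7, Cdkn2c, an inhibitor of Cdk4 and Cdk6, at 74.2, Ccnd2, cyclin D2, at 72.6 and Cdk2, the partner of cyclins E and A, at 38.9. Stmn1, a protein that destabilises microtubules, read 1265, 1228 and 1325 on 1 probe set of design A and 25.9, 23.6 and 24.7 on the other. Stmn1 stands outside the counts by class.

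Which replicate array read highest separated the mitotic from the replication genes. This count was added after the values had been seen. After each array was centred on its median, 9 of 26 replication probe sets above the floor were highest on the replicate 1 array of their design, 10 on replicate 2 and 7 on replicate 3. Of the mitotic probe sets above the floor 23 of 25 were highest on replicate 1, 0 on replicate 2 and 2 on replicate 3. By design, 20 of 21 were highest on replicate 1 on A, 2 of 2 on B and 1 of 2 on C. The shares of all named probe sets there were 33.2%, 38.1% and 41.9%, so the mitotic count rested mostly on 1 array of design A. Over all named probe sets above the floor 37.3% were highest on replicate 1, 37% on replicate 2 and 25.7% on replicate 3, so the replication count was near the background and the mitotic count was not. Without Mki67, Top2a and Ccna2, which also act before mitosis, 19 of 21 mitotic probe sets were highest there. For G1 control the counts were 3, 9 and 3 of 15. Without the floor, 11 of 35 replication and 29 of 33 mitotic probe sets were highest on replicate 1, beside 33.9% of all. The mitotic exceptions were a probe set of Cdc25c on design A and 1 each of Kif11 and Kif23 on design C, highest on replicate 3, and a shared probe set of Bub1 on design A, highest on replicate 2.

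**Figure D3:**
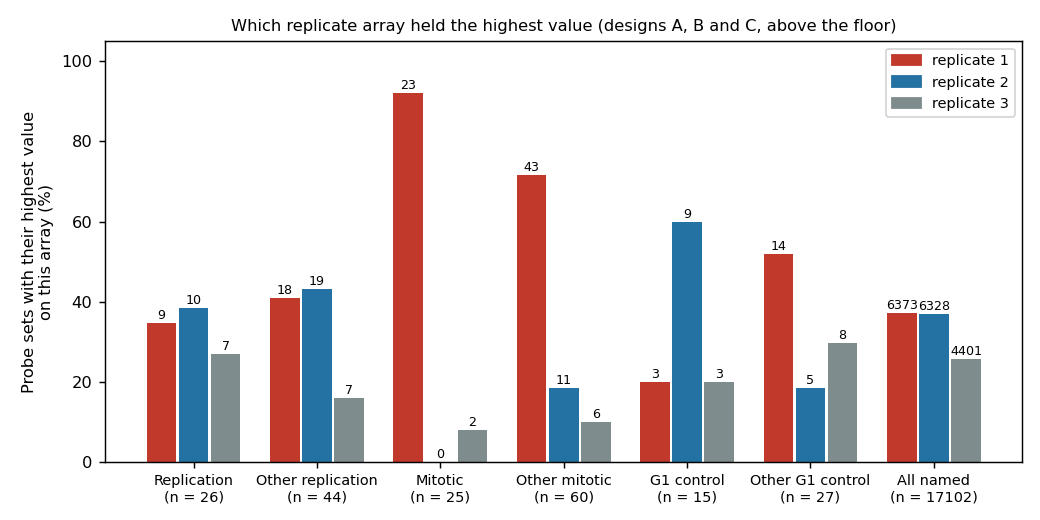
Share of probe sets above the floor (percent, vertical axis) whose highest centred value was on the replicate 1, 2 or 3 array of their design (red, blue and grey bars, with counts above them), for the replication, other replication, mitotic, other mitotic, G1 control and other G1 control lists and for all named probe sets. The replicate 1 bar of the replication list holds 9 of 26 probe sets and that of the mitotic list 23 of 25, with 20 of these on design A.

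The size of the difference was modest. On design A the replication probe sets above the floor had median deviations from their own mean over the 3 arrays of 0.01, 0.03 and -0.04 on replicates 1, 2 and 3 (log2, 19 probe sets). The mitotic ones had 0.23, -0.09 and -0.11 (21 probe sets), and all named probe sets had 0.01, 0.04 and -0.04 (6342 probe sets). On replicate 1, 10 of the 19 replication probe sets and 20 of the 21 mitotic ones lay above their own mean, beside 52.4% of all named ones. A mitotic deviation of 0.23 corresponds to 1.17 times the mean over the arrays. The range of the mitotic medians over the 3 arrays was 0.34, and without replicate 1 it was 0.0016, so it rested on that array. Among 2309 named probe sets of design A with signal between the quartiles of the mitotic ones, the medians were 0.02, 0.06 and -0.07.

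**Figure D4:**
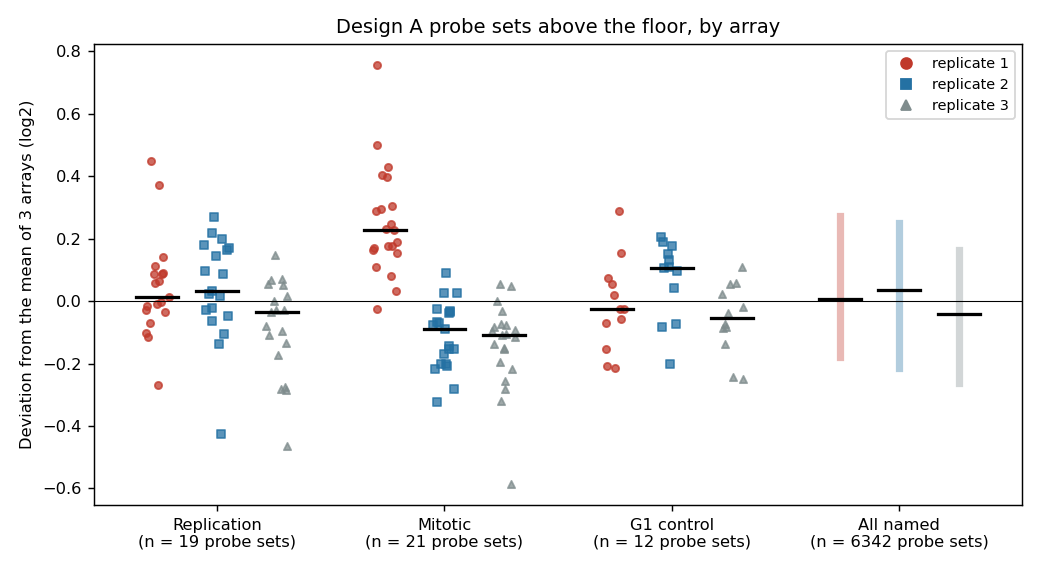
Deviation of each probe set of design A above the floor from its own mean over the 3 arrays (log2, vertical axis, arrays centred on their medians), by replicate array, for replication, mitotic and G1 control genes, with black lines at the medians and, for all named probe sets, vertical bars from the 5th to the 95th percentile. The replication medians lie between -0.04 and 0.03, and the mitotic median is 0.23 on replicate 1, above those of replicates 2 and 3 (-0.09 and -0.11).

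The other designs, which carry different probe sets, gave few mitotic values. On design B the probe sets of Bub1b and Cenpe had median deviations of 0.36, -0.17 and -0.19, both highest on replicate 1. On design C the deviations were 0.57, -0.14 and -0.43 for Aurkb and -0.08, 0.03 and 0.05 for Kif11, so these probe sets moved in opposite directions. Both are marked as shared or reduced, so these readings are less certain. The labels do not say that arrays of equal number on different designs shared an RNA sample. A margin was also set, again after the values had been seen. At least 1.2-fold above both other arrays on replicate 1 were 3 of 26 replication and 13 of 25 mitotic probe sets above the floor, beside 6.96% of all named ones. The same margin on replicate 2 held for 1 replication and 0 mitotic probe sets, beside 4.44%, and on replicate 3 for 1 and 0, beside 2.05%. More dividing cells in a sample, more of these transcripts per cell and a technical difference between arrays cannot be told apart in such bulk RNA.

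Other lists also differed between the arrays. On design A the median deviations on replicates 1, 2 and 3 were 0.02, 0.14 and -0.12 for 10 endothelial probe sets above the floor. They were 0.12, -0.07 and -0.01 for 4 probe sets of microglia and macrophages, 0.11, -0.16 and 0.05 for 2 of retinal progenitors and glia, -0.25, -0.01 and 0.04 for 3 of photoreceptors, and -0.02, -0.11 and 0.00 for 3 of mural cells. Astrocyte probe sets (2) had -0.02, 0.08 and -0.06 and erythroid ones (3) had -0.03, 0.06 and -0.03. Above the floor the microglia and progenitor lists were highest on replicate 1 of design A, on few probe sets. Without the floor the 10 microglia probe sets of design A had 0.03, 0.03 and -0.04, and the 8 progenitor ones had -0.06, 0.05 and 0.02. The 1 progenitor probe set above the floor on design B had -0.27, 0.23 and 0.05. On design C the 1 progenitor probe set above the floor had 0.09, -0.17 and 0.08, and the 1 microglia one had 0.06, -0.11 and 0.05. Among probe sets above the floor on design A, 2 of 4 microglia and 0 of 2 progenitor ones passed the 1.2-fold margin on replicate 1. Of all named ones there, 6.01% passed it. The part of these cell types in the mitotic difference was not tested.

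A further 37 replication, 40 mitotic and 24 G1 control genes that are not members were counted in the same way. Of their probe sets above the floor, 18 of 44 of the further replication genes and 43 of 60 of the further mitotic genes were highest on replicate 1, beside 37.3% of all named ones. For the further G1 control genes it was 14 of 27, whereas 3 of 15 member probe sets of G1 control were highest on replicate 1. On design A alone it was 9 of 13 further and 2 of 12 member ones, beside 33.2% of all named ones there. The member and further lists of G1 control therefore differed in their highest array. At least 1.2-fold above both other arrays on replicate 1 were 2 of 44 replication, 26 of 60 mitotic and 1 of 27 G1 control probe sets, beside 6.96%. Median deviations on design A were 0.01, 0.04 and -0.05 for the further replication genes 0.21, -0.09 and -0.15 for the further mitotic ones and 0.11, -0.03 and -0.05 for the further G1 control ones. The further mitotic genes also had medians of 0.24, -0.05 and -0.05 on design B (16 probe sets) and 0.12, -0.15 and 0.02 on design C (14 probe sets). On design C replicate 2 was the low array.

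Their positions were close to those of the members for replication and lower for mitosis. The median was 71.1 ± 0.52 for the further replication genes and 68.3 ± 3.6 for the further mitotic ones, and 53.9 ± 2.7 for the further G1 control genes (SD over 3 replicates). The highest further replication genes were the topoisomerase Top1 with 476, 516 and 419, the polymerase epsilon gene Pole with 203, 189 and 236 on design B, and Dtl, an adaptor of an S phase ubiquitin ligase, with 259.9, 262 and 241. The lowest were Atad2 with 18.7, 24 and 26.8 on design B and Dbf4, the activator of Cdc7 kinase, with 7.52, 8.67 and 8.29. The highest further mitotic genes were Cks2, a CDK subunit, with 985, 679.8 and 781, the kinetochore gene Zwint with 625, 748 and 579 averaged over 2 probe sets, and Espl1, the separase, with 284, 292 and 329.8 on design B. Of these, Cks2 alone was highest on replicate 1. The lowest were the kinesin Kif2c with 19.1, 23.2 and 12.3 and the ubiquitin-conjugating enzyme Ube2c with 16.7, 15.7 and 17.9. Of the further G1 control genes, the repressor E2f6 (286, 280.4 and 312, on design B), Ccng2 (379, 321 and 328) and the repressor E2f8 (228, 198 and 211, averaged over 2 probe sets) were highest, and Myc (10.1, 13.2 and 14.1) and the pocket protein gene Rbl2 (12.9, 12.6 and 10.1) were lowest.

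Probe sets of 1 gene could differ widely in position, among the members about as often as among all genes. Of the 28 member genes with several probe sets, 12 had probe sets over 40 percentile points apart, beside 47.2% of the 7645 genes with several. Rrm1, the large subunit of ribonucleotide reductase, read 374, 409.9 and 294 on 1 probe set of design A and 16.1, 11.7 and 21.3 on another, and its probe sets spanned 78.5 points. Cenpe spanned 76.9 points, its lowest probe set, a shared or reduced one, reading 11.7, 11.1 and 10.7. Ccne1 spanned 75, with 9.82, 9.26 and 9.01 on its lowest probe set, a reduced one, and Kif23 spanned 73.8, with 263, 224 and 226 on design A and 13.3, 11.7 and 10.8 on design C. Stmn1 spanned 71.6. Lig1, DNA ligase I, spanned 64.5, with 148, 149.9 and 126 against 16.7, 20.4 and 17.1 on a shared or reduced probe set. Tk1, thymidine kinase, spanned 63.1 over 6 probe sets, the highest of which is marked as shared or reduced. Of its plain ones 1 read 254, 242 and 243 and another 28.3, 25.6 and 30.7. Ccne2 spanned 58.4, its design C probe set, a shared or reduced one, reading 99.0, 78.8 and 89.4. The remaining ones were Ccnd3, Bub1, Ccnd1 and Mcm6, with 56.0, 51.7, 46.4 and 45.4 points. The lowest probe set of Bub1 and the highest of Mcm6 are marked as shared or reduced. When each gene was taken by its strongest probe set, the median position was 81.6 for replication and 83.8 for mitotic genes.

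**Figure D5:**
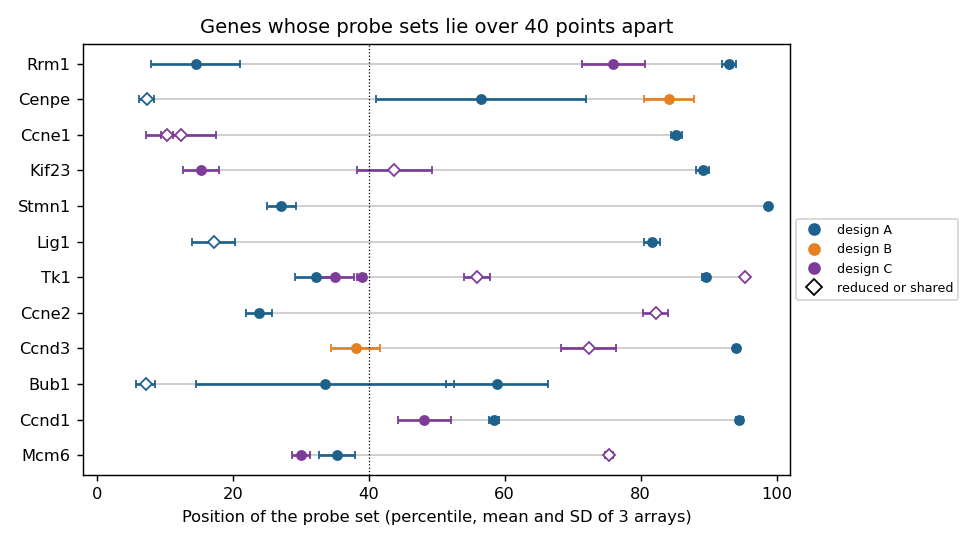
Position of every probe set (percentile, horizontal axis, mean and SD over 3 arrays) of the 12 member genes whose probe sets lie over 40 points apart, coloured by design, with open diamonds for reduced or shared probe sets and a dotted line at percentile 40. The probe sets of Rrm1 run from 14.5 to 93.1, and plain probe sets of Kif23, Stmn1 and Tk1 lie on both sides of the line.

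Promoter sequence was compared after the mitotic probe sets had been seen to share mostly 1 highest array and the replication ones had not. Whether promoter sequence bears on that difference between arrays was not tested. RefSeq promoters of build GRCm38.p6 were found for 19 replication, 16 mitotic and 9 G1 control genes. Mcm4, Ccna2, Cdc25c, Aurkb, Kif20a, Ccnd1, Ccnd2 and Ccne2 had no entry used here. The 250 bases before each start site were searched on both strands for E2F core letters (TTCCCGC or TTGGCGC or TTGCCGC or TTCGCGC), for letters of the cell cycle homology region (TTTGAA or TTCGAA), an element of G2 and M phase promoters, and for the CCAAT box (CCAAT). In 1 member promoter an E2F match shared bases with a CCAAT match. The stretches below are those of the highest replication and mitotic genes with an entry, then of Mcm5 and Ccnb2, chosen after the matches were seen as a replication promoter with E2F letters and a mitotic one without. Each is written along the gene's own strand, and capitals mark every match to any of these letters.
Pcna promoter (GRCm38.p6 chr2:132253181-132253430, minus strand): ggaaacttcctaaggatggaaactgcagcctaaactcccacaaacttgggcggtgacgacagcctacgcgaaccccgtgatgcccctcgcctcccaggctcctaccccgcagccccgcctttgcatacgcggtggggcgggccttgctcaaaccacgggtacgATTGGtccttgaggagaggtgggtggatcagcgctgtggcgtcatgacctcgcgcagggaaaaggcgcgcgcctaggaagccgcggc
Mcm3 promoter (GRCm38.p6 chr1:20820313-20820562, minus strand): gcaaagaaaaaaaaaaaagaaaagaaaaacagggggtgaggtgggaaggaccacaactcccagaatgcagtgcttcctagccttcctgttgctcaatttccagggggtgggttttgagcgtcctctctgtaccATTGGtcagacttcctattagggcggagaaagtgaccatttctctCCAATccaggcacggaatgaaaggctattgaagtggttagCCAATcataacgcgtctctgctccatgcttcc
Cdk1 promoter (GRCm38.p6 chr10:69352913-69353162, minus strand): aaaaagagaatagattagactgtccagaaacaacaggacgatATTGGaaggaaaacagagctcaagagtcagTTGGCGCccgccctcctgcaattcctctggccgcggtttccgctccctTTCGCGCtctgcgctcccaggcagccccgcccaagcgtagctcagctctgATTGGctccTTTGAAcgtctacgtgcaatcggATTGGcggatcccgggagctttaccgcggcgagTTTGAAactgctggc
Bub1b promoter (GRCm38.p6 chr2:118597961-118598210, plus strand): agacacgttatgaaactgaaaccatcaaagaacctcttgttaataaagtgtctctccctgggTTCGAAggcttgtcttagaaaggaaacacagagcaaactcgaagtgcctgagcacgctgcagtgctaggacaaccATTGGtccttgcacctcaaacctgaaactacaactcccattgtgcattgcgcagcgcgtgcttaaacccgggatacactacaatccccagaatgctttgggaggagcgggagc
Mcm5 promoter (GRCm38.p6 chr8:75109259-75109508, plus strand): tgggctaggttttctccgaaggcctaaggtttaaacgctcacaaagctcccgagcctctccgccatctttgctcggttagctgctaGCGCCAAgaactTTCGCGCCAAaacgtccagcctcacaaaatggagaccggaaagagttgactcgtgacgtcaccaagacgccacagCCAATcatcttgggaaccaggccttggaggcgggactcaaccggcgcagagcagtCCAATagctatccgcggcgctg
Ccnb2 promoter (GRCm38.p6 chr9:70421555-70421804, minus strand): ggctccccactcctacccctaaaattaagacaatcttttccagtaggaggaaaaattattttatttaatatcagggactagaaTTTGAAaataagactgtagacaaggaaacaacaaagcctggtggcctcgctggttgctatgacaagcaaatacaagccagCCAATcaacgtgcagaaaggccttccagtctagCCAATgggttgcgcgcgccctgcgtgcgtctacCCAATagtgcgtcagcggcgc

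E2F core letters stood in 11 of 19 replication genes (57.9%), 2 of 16 mitotic genes (12.5%) and 2 of 9 G1 control genes (22.2%), beside 9.01% of all 27025 genes with a promoter. Of the printed stretches, those of Mcm5 (3 matches) and Cdk1 (2 matches) held them, and those of Pcna, Mcm3, Bub1b and Ccnb2 held 0. The cell cycle homology letters stood in 5 replication genes (26.3%), 7 mitotic genes (43.8%) and 0 G1 control genes, beside 19.6% of all. Cdk1, Bub1b and Ccnb2 held them among those printed. A CCAAT box stood in 13 replication genes (68.4%), 14 mitotic genes (87.5%) and 3 G1 control genes (33.3%), beside 37.5% of all. Both CCAAT and cell cycle homology letters stood in 4 replication and 7 mitotic genes, beside 7.0% of all, and the mitotic ones were Mki67, Top2a, Ccnb2, Cdk1, Cdc20, Bub1b and Kif11. These are matches of letters within a window and do not show binding, and a promoter without a match says nothing about the factor.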

How the data were processed

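The authors deposited 1 linear intensity per probe set and array, in a table per design, per the file headers. How probe signals were summarised and scaled, and with which software, is not stated in the sources used here, and no detection calls were used. Before log2, a value of 0 was replaced by the smallest positive one on its array. Names came from the platform annotation, by which 29131 of 36701 had 1 symbol. A gene's position was averaged over its probe sets on design A, else B, else C, and means and SDs are over replicate numbers. Deviations were computed on log2 intensities minus each array's median, for probe sets above the floor (40th percentile on all 3 arrays). The number of arrays limits the precision. No test was run, since all arrays belong to 1 condition.

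The members, roles and other lists were chosen with earlier results of these data known. Array readings were printed for Mki67, Pcna, Top2a, Cdk1, Ccnd1, Cdkn1a, Cdkn1b, Stmn1 and Mcm2, for the 4 highest and 3 lowest genes of each class, for up to 8 genes with probe sets over 40 points apart, and for the 3 highest and 2 lowest genes of the further lists. Pola1, Rfc3, Rrm2 and Aurka were added after their values were seen. Alternatives varied the gene value, probe set class, ranking, designs, floor, thresholds, offset, class membership and replicates. Python 3.11.15, numpy 2.4.6, pandas 2.3.3 and matplotlib 3.10.9 were used, and the scripts were tested on simulated data.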

Additional observations from a re-analysis of the deposited data

How the results depend on the processing

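With 1 condition and 3 arrays per design, only readings of these arrays can be described. No paired analysis was possible because the arrays belong to 1 condition and no result comes from a test. Of 45 alternatives other than leaving out a replicate, 34 kept their result. The results differ in kind, so this count is no rate of robustness. A replication position of 73.4 against 72.4 counted as moved. A count of 17 of 22 plain mitotic probe sets above the floor, against 25 of 33 in all, counted as kept. The replication median position was 73.4 on design A alone, 74.2 over all probe sets, 71.5 when ranked among probe sets with 1 symbol, 75.8 over plain probe sets and 81.6 by the strongest probe set, where the mitotic one was 83.8. The replication minus mitotic difference was -2.29 (SD 3.8 over replicates) over all probe sets, -2.59 (SD 3.6) over plain ones and -2.17 (SD 1.3) by the strongest. Above the 90th percentile of the unrelated-tissue probe sets lay 22 of 35 replication (62.9%) and 16 of 33 mitotic probe sets (48.5%), beside 43.1% of all named ones. Above the 75th percentile lay 11 of 25 plain replication ones, beside 24.2% of all plain named ones. Leaving out 1 replicate at a time, the range of median deviations on design A ran from 0.0016 (without replicate 1) to 0.36 for mitotic and from 0.0091 (without replicate 3) to 0.17 (without replicate 1) for replication probe sets, the difference from -6.83 to -5.17, the mitotic position from 77.1 to 79.6 and the replication position from 71.9 to 72.8. The cause of these changes was not tested.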
